A study of Mus musculus with 2 samples.

Results

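The Zfp36 family of mRNA decay factors was examined in a map of Aiolos on chromatin, as the 3 genes Zfp36, Zfp36l1 and Zfp36l2. Aiolos, the product of Ikzf3, is a zinc finger transcription factor of the Ikaros family. The genes were chosen by their peaks: every row of the authors' peak list whose gene symbol is one of the 3 was taken, which gave 5 of the 1404 peaks and 3 of the 1276 genes in the list. Of all 21900 protein-coding genes of the RefSeq table, 5.38% had a peak. Zfp36 had 2 peaks, Zfp36l1 had 1 and Zfp36l2 had 2.

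CUT&RUN, in which an antibody guides a nuclease to a chromatin protein and the released DNA is sequenced, was run on mouse natural killer (NK) cells. The cells came from spleen and were grown with 50 ng/ml of interleukin-15. There was 1 library with an Aiolos antibody and 1 library without a primary antibody, so no value has a replicate error. The sources used here do not state strain, age, genotype or pooling of animals, and a peak list holds no transcript levels against which the cell type could be checked.

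The Zfp36 proteins carry a tandem pair of CCCH zinc fingers that bind AU-rich elements in the 3' untranslated region of short-lived mRNAs. They recruit the CCR4-NOT deadenylase, after which the message is decapped and degraded. Zfp36, also called tristetraprolin or TTP, is an immediate-early gene in many cells and restrains cytokine mRNAs such as that of tumour necrosis factor. Zfp36l1 and Zfp36l2 share this activity and are known in mice for their part in lymphocyte development and quiescence.

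RefSeq promoter sequences were at hand for Zfp36 and Zfp36l1 but not for Zfp36l2, the only member whose start lay inside a peak. Of the sequences at hand, only that of Zfp36l1 overlapped a peak of its gene, so it is shown first. It is the stretch before the start of transcription on the minus strand of chromosome 12 (chr12:80113014-80113263, GRCm38.p6, the assembly of mm10), printed 5' to 3' on the gene's own strand. The 80 capitals are the bases inside the Aiolos peak, and the summit is at base 12 of the printed run.
Zfp36l1: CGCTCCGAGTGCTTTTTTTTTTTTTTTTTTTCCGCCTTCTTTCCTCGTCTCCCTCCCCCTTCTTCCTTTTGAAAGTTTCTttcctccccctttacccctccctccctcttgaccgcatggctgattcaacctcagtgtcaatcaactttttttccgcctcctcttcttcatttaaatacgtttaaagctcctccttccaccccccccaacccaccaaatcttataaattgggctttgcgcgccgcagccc

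The capitals are rich in C and T. Of the 80 bases, 85.0% were pyrimidines, and of all 250 bases 75.6% were, where the median of the same stretch over 32851 RefSeq promoter windows was 50.0%. A strand bias of 75.6% or more, towards pyrimidines or purines, occurred in 103 of these windows (0.314%), and in 1 of the 378 windows that held the summit of any Aiolos peak (0.265%), that of Zfp36l1 itself. The longest run of T was 19 bases and began just past the summit base. A run of T or A this long was present in 219 windows (0.667%), and in 3 of the 378 with a summit (0.794%). These features were picked after the sequence had been read.

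Zfp36, on the minus strand of chromosome 7, had both its peaks upstream of the gene. The distal one, at 28382622 to 28383155, had the highest fold of the family, with 13 tags at its summit (95% exact Poisson interval 6.92 to 22.2) over a background of 0.364 tags, a fold enrichment of 10.3 (5.81 to 17.0) and a -log10 q of 12.3. A tag is a read as counted by the peak caller, and the fold is the ratio of tags plus 1 to background plus 1. Only 106 of the 1404 peaks had a higher fold. Its summit lay 2751 bp upstream of the start of the transcript that the authors assigned.

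The proximal Zfp36 peak, at 28380822 to 28381058, had the lowest fold and -log10 q of the family, though not the fewest tags. It had 8 tags (3.45 to 15.8) over a background of 1.17 tags, which gave a fold of 4.14 (2.05 to 7.72) and a -log10 q of 1.82. Its fold was exceeded by 1370 peaks. Its background was exceeded by 52 (3.70%), and 110 peaks, this one included, had that same background. The lowest -log10 q in the list was 1.31, so of the family peaks this one lay closest to the authors' limit, and regions beyond that limit are not in the list.

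The authors' annotation called both Zfp36 peaks promoter peaks, the distal one in the class of 2-3 kb and the proximal one in that of at most 1 kb. The summit of the proximal peak lay 768 bp upstream of the assigned start at 28380253. RefSeq starts the Zfp36 gene at 28379228, which is 1025 bp further downstream. Measured from the RefSeq start, the summits of the proximal and the distal peak lay 1793 and 3776 bp upstream, and neither peak overlapped the RefSeq promoter window at 28379179 to 28379478. Such a gap was uncommon: of 762 peaks with a summit within 1000 bp of the authors' start and a RefSeq start in the table, 64 (8.40%) had a summit more than 1000 bp from every RefSeq start of their gene.

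Both Zfp36 peaks fell in the intergenic stretch between Zfp36 and Med29, which encodes a subunit of the Mediator complex. The edge of the distal peak was 3394 bp from the body of Zfp36 and 2092 bp from that of Med29. Med29 is transcribed from the minus strand too, so the near side is its 3' end. The RefSeq start of Zfp36 was 3.78 kb from the summit and that of Med29 9.69 kb.

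**Figure D1:**
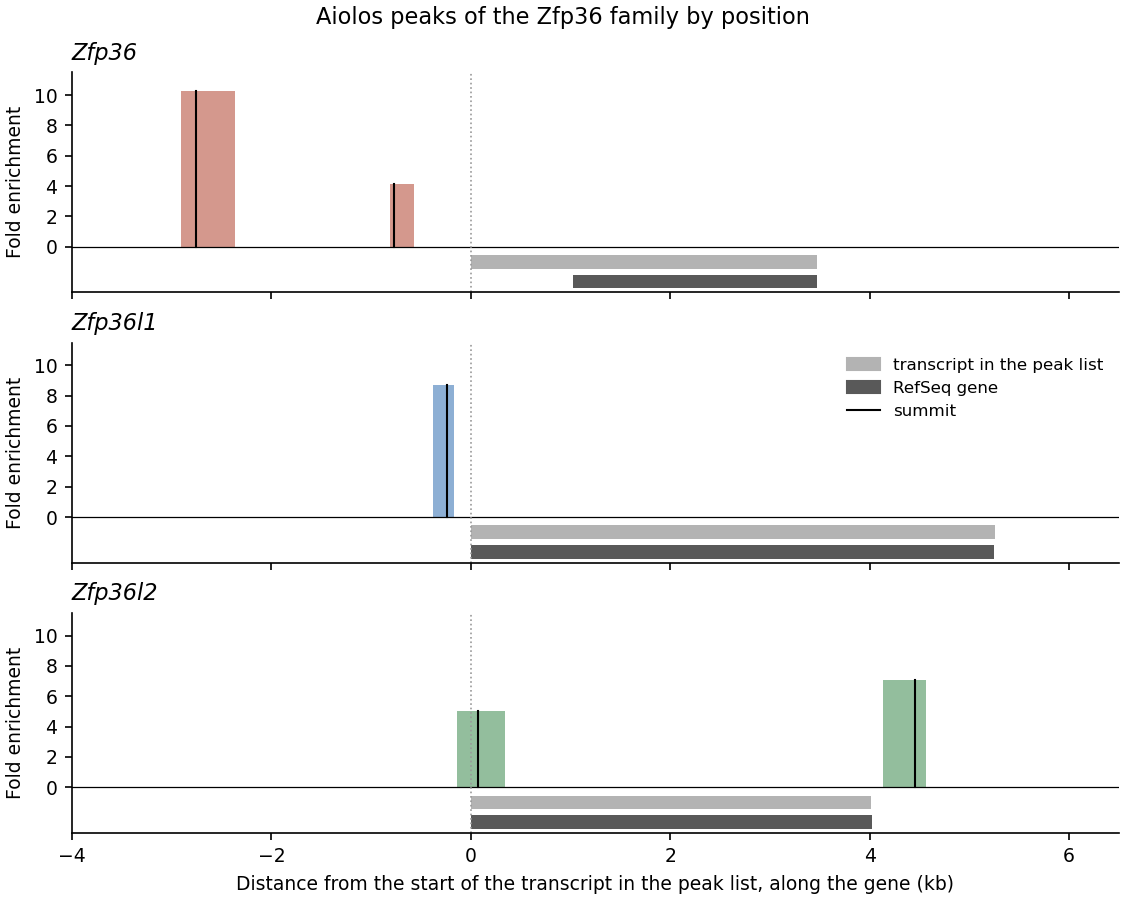
Position of the 5 Aiolos peaks relative to the start of the transcript assigned in the peak list (x axis, kb along the gene) with fold enrichment (y axis, bar height); bar width is peak width, black lines are summits, and grey bars below are the assigned transcript and the RefSeq gene. Both Zfp36 peaks lie upstream of the gene, the Zfp36l1 peak lies 239 bp before the start, and the Zfp36l2 peaks sit at the opposite ends of the gene.

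Zfp36l1 had a single, narrow and comparatively strong peak on chromosome 12 at 80113184 to 80113394. It held 13 tags (6.92 to 22.2) over a background of 0.606 tags, a fold of 8.72 (4.93 to 14.5) with a -log10 q of 9.48, and 265 peaks had a higher fold. The summit lay 239 bp upstream of the start, on which the assigned transcript and RefSeq coincide. Its width of 211 bp was near the smallest in the list, 207 bp: among the 255 peaks with 13 or more tags, whose median width was 295 bp, 10 were no wider.

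The nearest gene body on the far side of the Zfp36l1 peak was Gm52006, a predicted protein-coding gene, with 186 bp between them. Gm52006 is on the minus strand and starts 4.17 kb from the summit, so its near side is also a 3' end. The Zfp36l1 peak stood alone, with 0 other peaks within 100 kb, as did 826 of the 1404 peaks (58.8%).

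Zfp36l2, on the minus strand of chromosome 17, had a peak at each end of the gene. The peak at its start, 84187600 to 84188082, spanned the start of transcription with its summit 72 bp inside the gene. It had 5 tags (1.62 to 11.7) over a background of 0.186 tags, the lowest value in the list, with a fold of 5.06 (2.21 to 10.7) and a -log10 q of 3.29. The same pair of 5 tags and lowest background was found at 74 peaks, so this strength was common. Of its 483 bp, 348 bp lay in Zfp36l2 and 39 bp in Gm36279, a long noncoding RNA gene whose body adjoins the start of Zfp36l2. The next gene on that side was Thada, with 1974 bp between it and the peak.

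The other Zfp36l2 peak, at 84183385 to 84183810, lay just beyond the 3' end. Its summit was 4460 bp downstream of the start and 437 bp past the RefSeq end of the gene, and the authors classed it as downstream. It was the stronger of the Zfp36l2 peaks, with 8 tags (3.45 to 15.8), a background of 0.267 tags, a fold of 7.10 (3.52 to 13.2) and a -log10 q of 6.39. Its edge was 114 bp from Zfp36l2 and 454 bp from the noncoding RNA gene Gm41640 on the other side.

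Set side by side, the members differed in position, and the counting intervals of their folds overlapped. With the summit as reference, 3 of the 5 peaks lay within 1000 bp of the assigned start, 1 for each gene, and 2 did with RefSeq starts, where the proximal Zfp36 peak dropped out. The folds ran from 4.14 to 10.3, but the 5 counting intervals all shared the range between 5.81 and 7.72. Such overlap is not a test of difference, and the order of the folds was not tested. The proximal Zfp36 peak and the Zfp36l2 peak past the 3' end had 8 tags each and differed in fold, 4.14 against 7.10, through their backgrounds of 1.17 and 0.267 tags. The value of 1.17 was 2 steps of 0.586 tags, the commonest background above the lowest, so backgrounds of this kind moved in coarse steps. Error in the backgrounds is not part of the intervals. The distal Zfp36 peak and the Zfp36l1 peak likewise had 13 tags each.

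**Figure D2:**
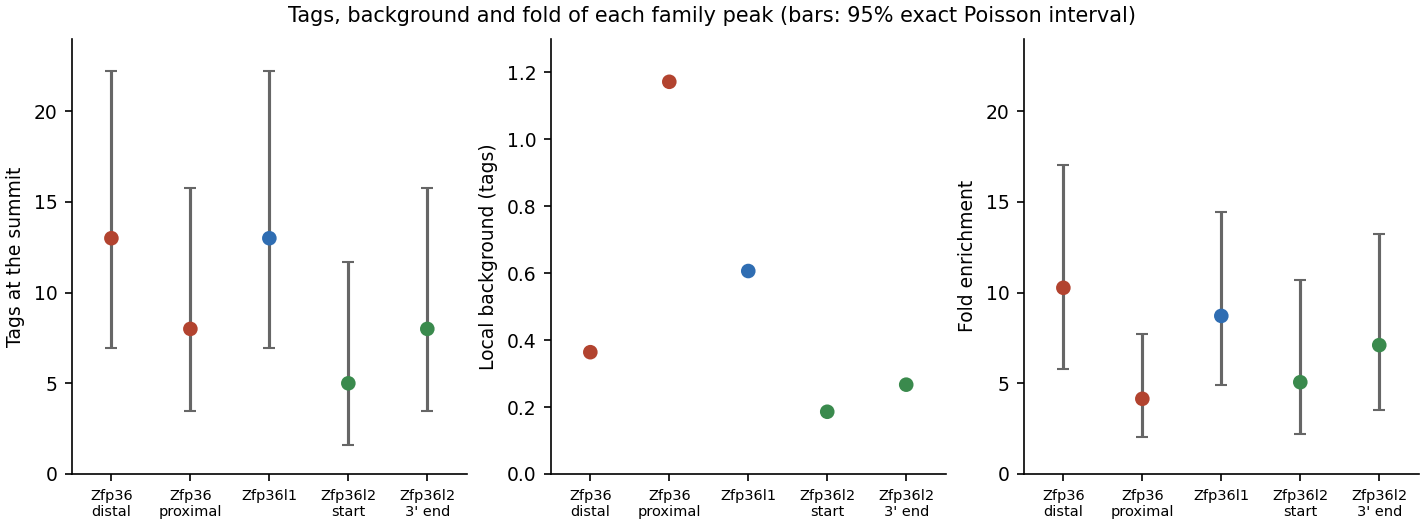
Tags at the summit, local background in tags and fold enrichment of the 5 family peaks (y axes), with 95% exact Poisson intervals of the tags and of the fold at fixed background as bars. Peaks with the same number of tags, 13 at Zfp36 distal and Zfp36l1 and 8 at Zfp36 proximal and Zfp36l2 3' end, have different folds because their backgrounds differ, and all fold intervals overlap.

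Peak by peak, the family's strengths were spread over the range of the whole list. The median fold of the 5 peaks was 7.10 and that of all 1404 peaks 6.44, with 3 of the 5 above the latter. The median tag number was 8 in the family and 8 in the list. Family peaks were 211, 237, 426, 483 and 534 bp wide with a median of 426 bp, against 265.5 bp for all peaks. The presence and strength of peaks chose the members, so these values are descriptions.

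By gene, the strongest fold of each member was above the median over the 1276 genes, 6.57: 91.6% of genes had a lower one than Zfp36, 79.2% than Zfp36l1 and 59.9% than Zfp36l2. Zfp36 and Zfp36l2 entered with the higher of 2 folds, whereas 1173 of the 1276 genes had only 1 peak. With tags in place of fold, 2 of the 3 members were above the median gene, whose strongest peak had 8 tags. The strongest Zfp36l2 peak also had 8. Zfp36 held 21 tags over its 2 summits, and 51 of the 1276 genes in the list held more. Zfp36l1 and Zfp36l2 held 13 each, where the median gene held 8 and 249 genes held more than 13. Among the 85 genes with 2 peaks the median was 18 summed tags, so Zfp36 was above and Zfp36l2 below the median of genes with as many peaks. More than 1 peak was seen at 2 of the 3 members and at 103 of the 1276 genes (8.07%). The summits were 1983 bp apart at Zfp36 and 4388 bp apart at Zfp36l2, and the median over the 85 genes with exactly 2 peaks was 4899 bp.

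**Figure D3:**
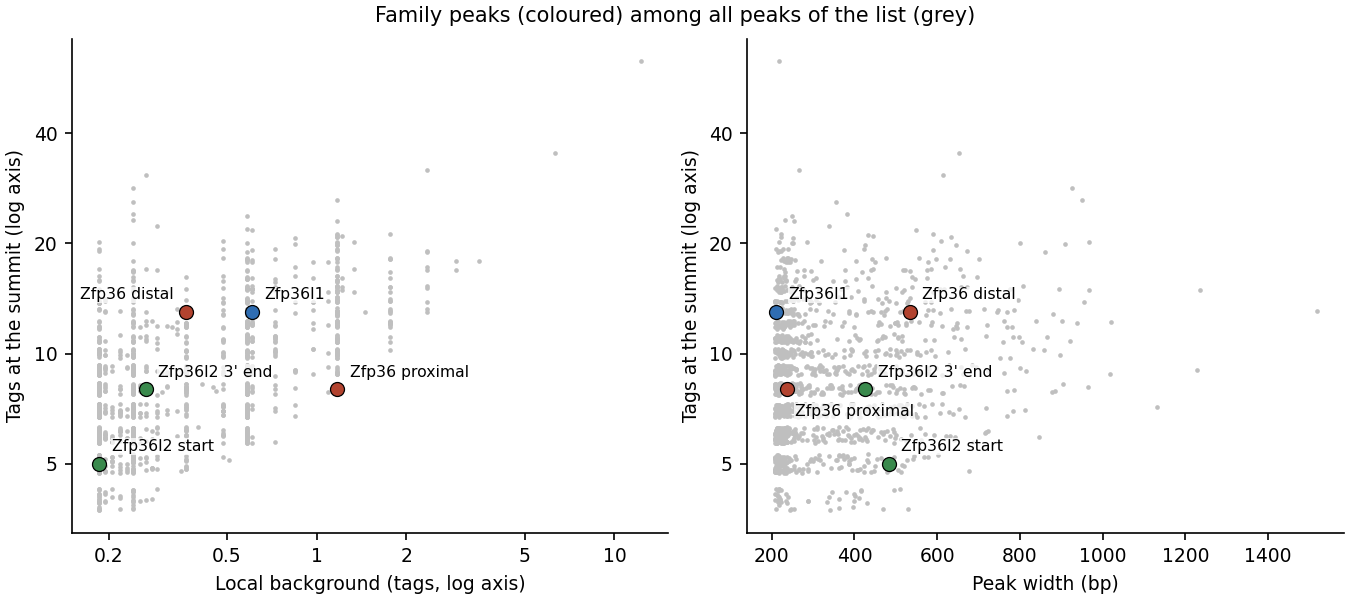
Tags at the summit (y axes, log scale, grey points shifted at random by at most 0.3 tags for visibility) against local background in tags (left, log scale) and peak width in bp (right) for all 1404 peaks in grey and the 5 family peaks in colour. The proximal Zfp36 peak lies at a high background of 1.17 tags for its 8 tags, and the Zfp36l1 peak at the narrow edge of the widths.

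Letter matches for transcription factor motifs were counted on both strands of the 300-base RefSeq promoter windows, from 250 bases before to 50 after the start, which the table held for Zfp36 and Zfp36l1. The core of the Ikaros motif, TGGGAA, was in neither window, in 20.1% of the 378 windows with a summit and in 25.6% of all windows. The AP-1 motif TGANTCA occurred once in the Zfp36l1 window, 129 bp upstream of the start and outside the peak, in the lower-case part of the printed run. It was in 5.82% of windows with a summit and in 7.81% of all windows. The ETS core CCGGAA occurred once in the Zfp36 window, 92 bp upstream of the RefSeq start, and in 14.9% of all windows. The cyclic AMP response element TGACGTCA, the Egr motif GCGTGGGCG and the Runx motif TGTGGT had no match in either window, and occurred in 1.79%, 0.612% and 16.8% of all windows. These windows do not contain the Zfp36 peaks and contain only part of the Zfp36l1 peak.

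The machinery through which the family acts was described from lists of known components, beside the 5.38% of 21900 protein-coding genes that had a peak and the 3.79% that had a promoter peak, one whose centre is within 1000 bp of the start. The intervals on list shares treat the listed genes as random draws, which they were not, so they test no excess. Zfp36l3, the remaining family member in the mouse, known from placenta and yolk sac, had 0 peaks. Of the CCR4-NOT deadenylase and its adaptors, 4 of 18 genes had a peak (22.2%, 95% exact Clopper-Pearson interval 6.41 to 47.6) and 3 had a promoter peak. Cnot9, a subunit of the complex, had 8.83-fold enrichment with its summit 67 bp inside the gene. Cnot3 had 4.21-fold and Cnot1, the scaffold subunit, 4.14-fold, both upstream of the start, and the peak of Nanos3, a repressor known from germ cells, was intergenic at 6.75-fold. The Cnot1 peak had the same 8 tags and background of 1.17 as the proximal Zfp36 peak.

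Genes of the other decay steps were counted in the same way. Pan2, the catalytic subunit of the PAN2-PAN3 deadenylase, had a promoter peak of 10.1-fold (5.83 to 16.5), the only one among 5 genes of that list. Decapping and XRN1 genes had 2 of 18 (11.1%, 1.38 to 34.7): Eif4enif1, a partner of the cap-binding protein eIF4E, at 12.6-fold (7.25 to 20.5) and Lsm6, part of the Lsm ring, at 5.90-fold. The exosome list had 0 of 14 genes with a peak (upper exact bound 23.2%). Among other regulators of mRNA stability, 3 of 19 had a peak (15.8%, 3.38 to 39.6), among them Zc3h12a, an endonuclease that cleaves mRNAs of inflammatory genes, at 7.11-fold and Khsrp, which binds AU-rich elements, at 5.53-fold.

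Upstream of the family, the kinase MK2 phosphorylates tristetraprolin, which is then bound by Ywha adaptor proteins. In this list of p38 and MK2 kinases, adaptors and phosphatases 3 of 14 genes had a peak (21.4%, 4.66 to 50.8). They were Dusp1, a phosphatase of p38, with a promoter peak of 5.99-fold and another 6.54 kb upstream at 8.20-fold, and the adaptors Ywhaq at 6.23-fold and Ywhaz at 4.83-fold. Neither Mapkapk2, the gene for MK2, nor Mapk14 had one.

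Of 22 genes whose mRNAs bear AU-rich elements and are known targets of the family, 5 had a peak (22.7%, 7.82 to 45.4) but only Csf2 had one at its promoter (4.55%), at 6.44-fold. The summits of the other peaks lay 6.05 kb from the start at Il10, 9.18 kb at Ccl3, 26.5 kb at Fos and 29.5 kb at Ifng. Tnf, the best studied target, had none. Over all lists, 18 of 111 genes had a peak (16.2%, 9.90 to 24.4). The lists were drawn up with earlier results of these data known, and the share is not an independent test.

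**Figure D4:**
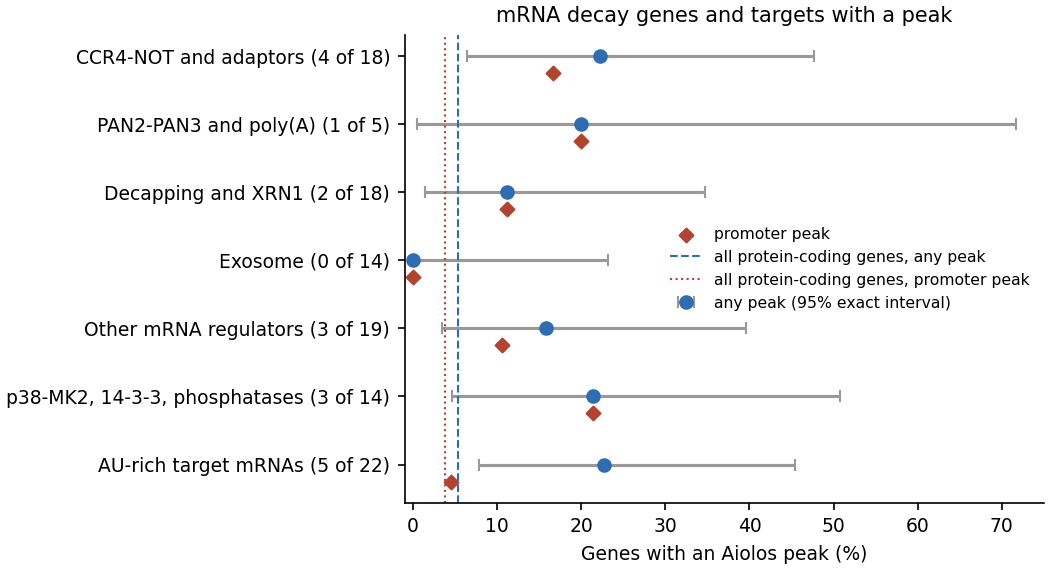
Share of genes with any Aiolos peak (circles, with 95% exact Clopper-Pearson intervals) and with a promoter peak (diamonds) in 7 lists of mRNA decay genes and targets, with the shares of all protein-coding genes, 5.38% and 3.79%, as lines. For target mRNAs the promoter share, 4.55%, lies near its line, and the intervals are wide for lists of 5 to 22 genes.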

How the data were processed

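CUT&RUN libraries of cultured splenic NK cells, 1 with Aiolos antibody and 1 without primary antibody, were analysed from the deposited list of 1404 peaks. MACS2, Bowtie2, Picard and SAMtools and the build mm10 are named in the submitters' processing notes; the sources used here do not state settings or control. The authors' value columns were read as MACS2 writes them for narrow peaks: a fold enrichment (a ratio), -log10 p, -log10 q and a score. The score equals 10 times -log10 q without decimals, and each peak also has a summit and an assigned transcript. Distances here run from the summit to the start of that transcript.

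Tags and background of each summit were derived from fold and -log10 p as whole reads under a Poisson model (largest error 1.75e-05). All of 1404 peaks simulated with the same formulae were recovered, which checks the arithmetic and not the model. Intervals are 95% exact Poisson at fixed background and cover counting error only. Genes and promoter sequences came from RefSeq tables (GRCm38.p6); 3 of 3 members and 111 of 111 listed genes matched, 1 of them (Patl1) through an older symbol, and promoter windows were matched for Zfp36, Zfp36l1 and Zfp36l3. Members and lists were chosen with earlier results of these data known, and no test was run. The named genes were all members, their neighbours, all listed genes with a peak, of which 1 is not reported here, and per member the 3 protein-coding genes with as many peaks and the closest summed tags. Python 3.11.15, scipy 1.17.1 and pandas 2.3.3 were used.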

Additional observations from a re-analysis of the deposited data

How the results depend on the processing

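Of 23 alternatives, 17 left their count within 1.5 times the reported one. Falls from 3 to 2 and from 18 to 12 lie at that limit and are among the 17. Members above the median gene fell from 3 to 2 in the sets by median -log10 q and by median fold, and with tags in place of fold. Listed genes fell from 18 to 12 with the peak centre within 1000 bp of the start. The motif count entered as 0 in both settings and could not fall. A -log10 q of at least the list's median left 3 of the 5 family peaks, 1 per gene, and 8 of the 18 listed genes, and keeping peaks above the median fold left 3 and 7; both sets hold fewer peaks by construction, and their shares of all protein-coding genes were 2.89% and 2.73%. Requiring the peak centre within 1000 bp of the start left 3 family peaks and 1 member, against 3, above the median strongest fold per gene, since the strongest Zfp36 and Zfp36l2 peaks lie farther away. With the nearest gene body in place of the authors' assignment 4 of 5 peaks stayed with the family, and the distal Zfp36 peak went to Med29. The count within 1000 bp of the start, 3, was 2 with a 500 bp window, 4 with 3000 bp and 2 with RefSeq starts. RefSeq starts and the motif count in the 250 bases before the start were added after seeing the data. No paired analysis was possible because each group is 1 library. Depth limits single peaks: with 5 to 13 tags, the upper bound of the family's fold intervals is 2.93 to 4.83 times the lower.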

Other observations

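The surroundings of the family genes held other peaks, chosen for description after their values were seen. Around Zfp36, within 100 kb, promoter peaks were assigned to Plekhg2, a guanine nucleotide exchange factor gene, at 5.68-fold, to Supt5, a transcription elongation factor gene, at 4.83-fold, and to Gmfg, which encodes a regulator of actin branches in leukocytes, at 5.87-fold. With the partner peak, each Zfp36 peak had 4 others within 100 kb, a number reached or exceeded by 94 of 1404 peaks (6.70%). The Zfp36l2 peaks also had 4 others each. Of these, 3 lay together on the 3' side, 64.0 to 67.0 kb from the summit of the 3' peak, at 7.59-fold, 9.28-fold and 5.06-fold, in intergenic sequence that the authors assigned to 4933433H22Rik.

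The genes most like each member in number of peaks and summed summit tags were Tubb4b (21 tags), Arl4d (21) and M6pr (20) for Zfp36, out of 73 other protein-coding genes with 2 peaks. M6pr was taken by its fold from 8 genes that were 1 tag away. For Zfp36l2 they were Inpp5d, the gene of the phosphatase SHIP1, Gadd45b, a stress-induced gene, and Hivep2, each with 13 tags, as had 10 of the 73 in all. For Zfp36l1, 51 of 1085 genes with 1 peak had the same 13 tags, and of these 1700057G04Rik had the same fold of 8.72. Next in fold were 19 genes tied at 8.83, of which Agbl5 and B9d2 come first by symbol alone. This likeness rests on 1 library.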
